A study of Mus musculus with 89 samples.

Results

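Nodal signalling was followed through 9 genes in mouse embryonic stem cells depleted of the histone variant H2A.Z.1: the ligand Nodal, its co-receptor Tdgf1, the receptors Acvr1b and Acvr2b, the signal transducers Smad2 and Smad3, and the inhibitors Lefty1, Lefty2 and Smad7. They were picked by gene symbol from an RNA-seq count table with 26276 named genes, and all 9 were found. Of the 89 samples in the series, the 6 RNA-seq libraries carry these counts, and the other 83 are not analysed here. The 3 dTAG libraries and the 3 control libraries both come from V6.5 cells, a mouse embryonic stem cell line, of the genotype H2afz-FKBP-V. H2afz encodes H2A.Z.1, and the tag lets the dTAG molecule direct the tagged protein to degradation. The controls carry the same tag, and both groups grew with LIF, the MEK inhibitor PD0325901 and the GSK3 inhibitor CHIR99021, which hold the cells in the naive state. How long dTAG was applied, what the controls received and how many clones were used are not given for these libraries in the sources used here. The labels do not say whether replicates are separate cultures, and the spread that p-values are measured against may therefore be technical.

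Nodal is a secreted ligand of the TGF-beta family. It binds type I and type II activin receptors together with the membrane-anchored co-receptor Cripto, the product of Tdgf1, and the receptors phosphorylate SMAD2 and SMAD3, which enter the nucleus with SMAD4 and act on DNA with partners such as FOXH1. Nodal and the Lefty genes are themselves targets of the pathway, and the Lefty proteins block Nodal outside the cell, so the pathway carries a positive and a negative loop. In the early embryo Nodal patterns the epiblast and induces mesoderm and endoderm.

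The promoters of the ligand and its co-receptor are shown. The 2 transcripts differed from each other in counts scaled only to each library's total in named genes. On that scale Tdgf1 was below every control in every dTAG library, as were 3.22% of tested genes, whereas Nodal overlapped the controls. With edgeR's correction for library make-up both log2 fold changes were negative, at -0.33 (SE 0.39) for Nodal and -1.33 (SE 1.08) for Tdgf1. Neither passed an adjusted p under 0.05 (edgeR adjusted p = 0.553 for Nodal and 0.452 for Tdgf1). The RefSeq promoter table (build GRCm38.p6, 250 bases before to 50 bases after the transcript start) had entries for 5 of the 9 genes: Nodal, Tdgf1, Acvr1b, Acvr2b and Smad3. Capitals mark the 2 matches to GGGNGTGG, a KLF-type motif read on both strands. These matches begin 45 and 26 bases before the Tdgf1 start and both read GGGCGTGG. GGGNGTGG is present in 17.6% of the 32851 promoters in the table and in 0 of the other 4 entries. The Tdgf1 window, chr9:110946109-110946408 on the minus strand, also held 1 SMAD box (CAGAC, present in 49.6% of promoters) and 1 GC box (GGGCGG, present in 35.7%), neither overlapping the capitals. The Nodal window, chr10:61417722-61418021 on the plus strand, held no match to these 3 motifs, to the FOXH1 site AATNCACA (3.60% of promoters) or to the TCF/LEF core CTTTGA (16%). A match is a run of letters, not a bound site.
Tdgf1 promoter: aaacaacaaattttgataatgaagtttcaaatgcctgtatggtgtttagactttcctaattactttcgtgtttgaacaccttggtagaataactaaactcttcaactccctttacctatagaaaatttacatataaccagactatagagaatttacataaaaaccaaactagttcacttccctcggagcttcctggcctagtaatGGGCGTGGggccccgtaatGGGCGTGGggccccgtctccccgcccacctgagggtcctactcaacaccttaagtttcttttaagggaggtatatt
Nodal promoter: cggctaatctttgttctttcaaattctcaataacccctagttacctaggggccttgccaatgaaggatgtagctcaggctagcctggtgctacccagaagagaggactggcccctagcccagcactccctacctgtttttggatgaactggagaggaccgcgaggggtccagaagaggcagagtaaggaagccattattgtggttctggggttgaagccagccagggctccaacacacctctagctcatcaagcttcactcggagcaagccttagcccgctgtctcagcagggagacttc

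The dTAG libraries were unequal in depth and in make-up, which touches every value below. Counts in named genes were 12907095, 2131648 and 1812405 in dTAG replicates 1, 2 and 3, against 14091745 to 15652795 in the controls. All 10 naive stem cell markers had counts in every library, and their summed level was 2896, 1775 and 630 CPM (counts per gene with each library scaled to 1000000 counts in named genes) in dTAG replicates 1, 2 and 3, against 2623 to 2783 CPM in the controls. Olfactory and vomeronasal receptor genes, known for their use in sensory neurons, had a count in 23.5%, 71.5% and 97.0% of 1462 genes in dTAG replicates 1, 2 and 3, against 10.9% to 18.2% in the controls. Lists of other cell types moved with them. Summed feeder fibroblast markers stood at 43.5, 138 and 404 CPM in dTAG replicates 1, 2 and 3, against 29.5 to 43.0 CPM in the controls. Col3a1, Lum and Postn had 0 counts in dTAG replicate 1, and Col3a1 had 0 counts in every control, whereas all 9 fibroblast markers had counts in dTAG replicates 2 and 3. Primitive endoderm markers summed to 99.1, 245 and 645 CPM against 84.4 to 99.8 CPM, neuroectoderm markers to 45.9, 142 and 404 CPM against 40.0 to 50.6 CPM, primed epiblast markers to 46.5, 147 and 295 CPM against 52.9 to 60.8 CPM, and trophoblast markers to 144, 161 and 231 CPM against 129 to 159 CPM, in the same order of libraries. The RNA make-up differed as well. Rn45s, a ribosomal RNA row, held 12.1%, 13.7% and 0.604% of named-gene counts in the dTAG libraries, against 11.4% to 16.2% in the controls. Mitochondrial ribosomal RNA rows held 6.94%, 4.94% and 0.17%, against 6.84% to 7.13%. Rows without a gene name held 2.3%, 6.7% and 14.6% of all counts, against 2.2% to 2.4%. The part of these lists and rows in the results was not tested. In bulk RNA, fewer cells of a type and less RNA per cell cannot be told apart. H2afz itself had 107, 56.3 and 35.9 CPM in the dTAG libraries, against 78.8 to 95.7 CPM in the controls, which checks nothing, since dTAG acts on the protein.

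None of the 9 genes passed the test over the 6 libraries (edgeR quasi-likelihood test, adjusted p under 0.05), and neither did any of the 18116 genes tested, which is 0% higher and 0% lower. All 9 passed the filter on low counts. At an unadjusted p under 0.05 there was 1 of the 9, Lefty1, and 4202 of all genes. DESeq2 called Lefty1 alone of the 9, among 21.4% of genes called higher and 0.0676% called lower. edgeR without its filter called none of the 9, among 5.45% higher and 0% lower. On plain CPM, without scaling for library make-up, Lefty1 and Smad2 were above every control in every dTAG library, as were 23.9% of tested genes. Tdgf1 was below every control in every dTAG library, as were 3.22% of tested genes.

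**Figure D1:**
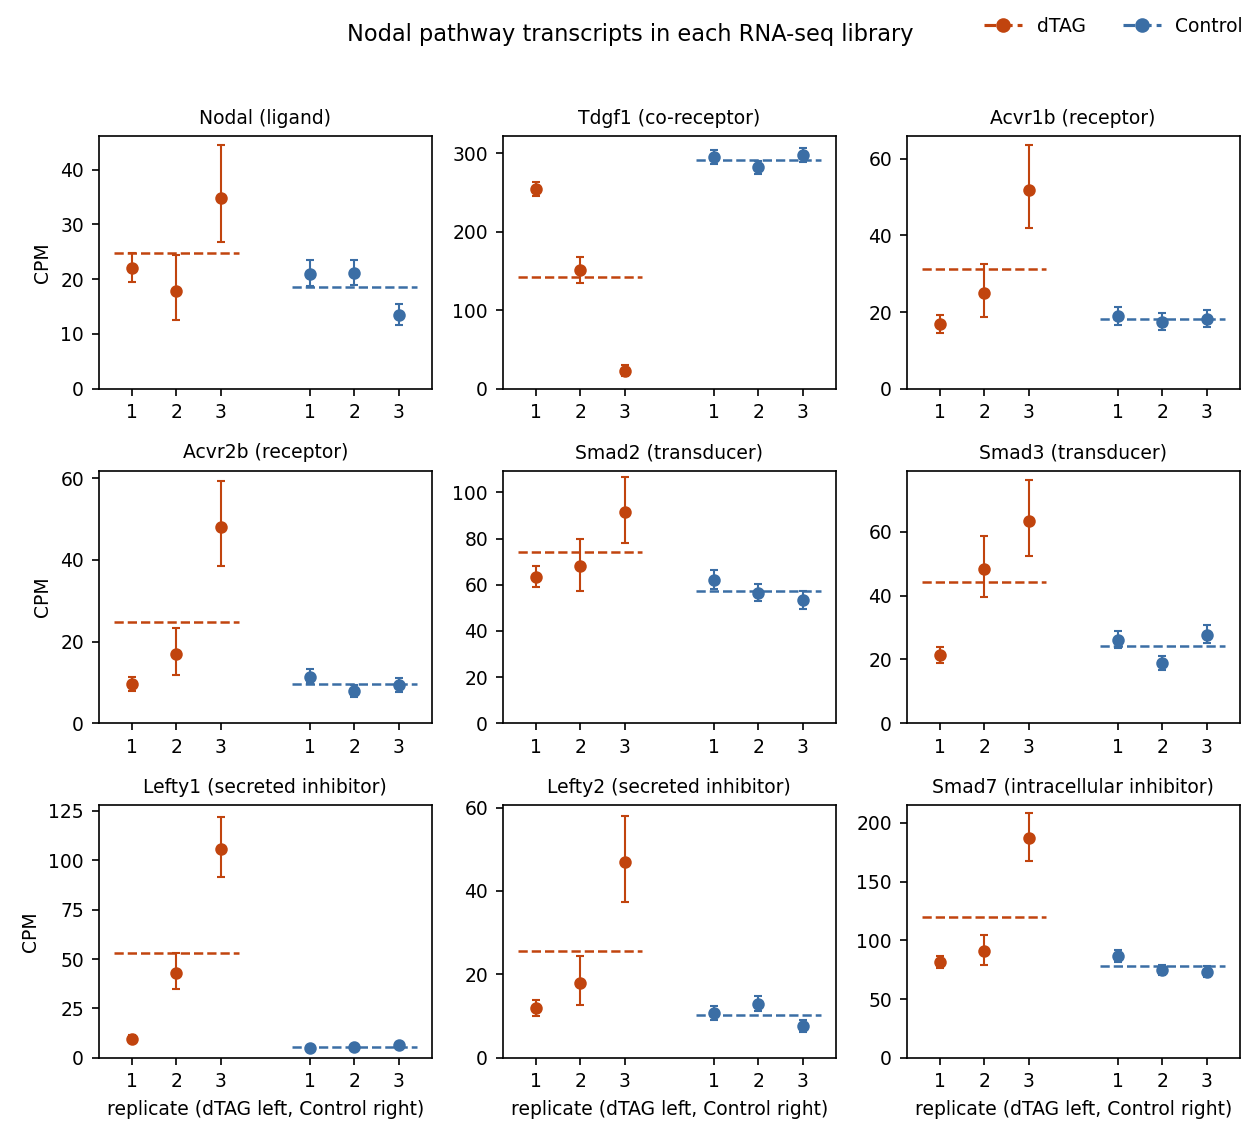
Level of each gene in each library, in CPM on a linear axis from 0, with dTAG replicates 1 to 3 left and control replicates 1 to 3 right. Bars are exact 95% Poisson intervals, which cover counting error only, and dashed lines are group means. Tdgf1 lies below the controls in every dTAG library and Lefty1 above them, and dTAG replicate 3 is the highest library for the 8 genes other than Tdgf1.

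Tdgf1, the co-receptor that Nodal needs to engage its receptors, was lower in every dTAG library. It stood at 254, 151 and 22.6 CPM in dTAG replicates 1, 2 and 3, against 295, 282 and 298 CPM in control replicates 1, 2 and 3. The groups did not overlap, and the dTAG libraries differed from each other far more than the controls did. Of tested genes, 3.22% were likewise below every control in every dTAG library. The group means were 142.5 ± 116 CPM in dTAG and 292 ± 8.6 CPM in controls (SD, n = 3 each). The log2 fold change was -1.33 (SE 1.08), and it did not pass (edgeR adjusted p = 0.452). Counts behind these levels were 3282, 321 and 41 in the dTAG libraries and 4199 to 4413 in the controls, so counting error alone allows 16.2 to 30.7 CPM in dTAG replicate 3. The control mean reached 10 CPM for 8876 genes. Of these, 15.9%, 4.65% and 4.89% had a lower ratio to the control mean than Tdgf1 in dTAG replicates 1, 2 and 3. That ratio was taken after adding 1 CPM to both levels, which limits how low it can fall for genes of low level. Set against the controls alone, dTAG replicate 1 was lower by 0.28 on the log2 scale (log2 fold change -0.28, SE 0.11, edgeR unadjusted p = 0.0155, adjusted p = 0.690).

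Nodal, the ligand, overlapped between the groups. It stood at 22, 17.8 and 34.8 CPM in dTAG replicates 1, 2 and 3, against 21.0, 21.2 and 13.5 CPM in the controls. dTAG replicates 1 and 3 lay above every control and dTAG replicate 2 lay within the controls' range. However, dTAG replicate 1 and control replicate 2 had overlapping counting intervals (19.5 to 24.7 CPM and 18.9 to 23.6 CPM). The group means were 24.9 ± 8.8 CPM in dTAG and 18.5 ± 4.4 CPM in controls (SD, n = 3 each). Its log2 fold change was -0.33 (SE 0.39, edgeR adjusted p = 0.553). The sign is opposite to that of the CPM means because edgeR's TMM factors, which correct for library make-up, were 1.23 and 2.49 for dTAG replicates 2 and 3, against 0.727 to 0.789 for the controls. dTAG replicate 1 alone gave 0.16 (SE 0.31, edgeR adjusted p = 0.992).

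The 2 receptor genes, Acvr1b for the type I receptor kinase ALK4 and Acvr2b for a type II receptor, did not pass. Acvr1b stood at 16.8, 24.9 and 51.9 CPM in dTAG replicates 1, 2 and 3, against 19.0, 17.4 and 18.2 CPM in the controls. dTAG replicate 1 lay below every control and the other 2 above. However, dTAG replicate 1 and control replicate 2 had overlapping counting intervals (14.65 to 19.2 CPM and 15.4 to 19.6 CPM). The log2 fold change of Acvr1b was -0.16 (SE 0.30, edgeR adjusted p = 0.701). Acvr2b stood at 9.53, 16.9 and 48.0 CPM in the dTAG libraries, against 11.4, 7.86 and 9.30 CPM in the controls, with dTAG replicate 1 inside the controls' range. Its log2 fold change was 0.32 (SE 0.40, edgeR adjusted p = 0.563).

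Smad2 and Smad3 encode the transcription factors that the activated receptors phosphorylate. Smad2 stood at 63.5, 68.0 and 91.6 CPM in dTAG replicates 1, 2 and 3, against 62.2, 56.6 and 53.4 CPM in the controls. Every dTAG library was above every control, as for 23.9% of tested genes. However, dTAG replicate 1 and control replicate 1 had overlapping counting intervals for Smad2 (59.2 to 68.0 CPM and 58.2 to 66.4 CPM). Its log2 fold change on the TMM scale was -0.36 (SE 0.42, edgeR adjusted p = 0.544), and dTAG replicate 1 alone gave 0.06 (SE 0.19, edgeR adjusted p = 0.998). Smad3 stood at 21.3, 48.3 and 63.5 CPM in the dTAG libraries, against 26.1, 18.9 and 27.8 CPM in the controls. dTAG replicate 1 lay within the controls and the other 2 above them. The log2 fold change of Smad3 was -0.02 (SE 0.33, edgeR adjusted p = 0.965).

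Lefty1, which encodes a secreted antagonist of Nodal, was higher in every dTAG library on CPM and had the smallest p of the 9 genes. It stood at 9.61, 43.2 and 106 CPM in dTAG replicates 1, 2 and 3, against 4.91, 5.30 and 6.74 CPM in the controls. The groups did not overlap, with ratios to the control mean of 1.70, 7.64 and 18.7. Of tested genes, 23.9% were likewise above every control in every dTAG library. The group means were 52.9 ± 48.9 CPM in dTAG and 5.65 ± 0.963 CPM in controls (SD, n = 3 each). The log2 fold change was 2.06 (SE 0.52) and did not pass (edgeR unadjusted p = 0.00428, adjusted p = 0.0831), whereas DESeq2 gave an adjusted p = 0.0137. Counts were 124, 92 and 192 in the dTAG libraries, against 70, 83 and 95 in the controls, so the library of full depth also had more counts than any control. In dTAG replicate 1 alone the log2 fold change was 0.68 (SE 0.48, edgeR adjusted p = 0.973). The order of the 3 dTAG libraries is that of the share of olfactory and vomeronasal receptor genes with a count, whose part in the Lefty1 values was not tested.

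Lefty2, which encodes a related secreted antagonist, and Smad7, the inhibitory SMAD that blocks the receptors inside the cell, overlapped between the groups. Lefty2 stood at 11.9, 17.8 and 46.9 CPM in dTAG replicates 1, 2 and 3, against 10.7, 12.9 and 7.52 CPM in the controls (log2 fold change 0.29, SE 0.39, edgeR adjusted p = 0.590). Smad7 stood at 81.4, 91.0 and 187 CPM in the dTAG libraries, against 86.7, 74.6 and 73.3 CPM in the controls (log2 fold change -0.24, SE 0.43, edgeR adjusted p = 0.679). For both genes dTAG replicate 1 lay within the controls' range and the other 2 dTAG libraries above it. Lefty1 (chr1:180935022-180938401) and Lefty2 (chr1:180893108-180899107, build GRCm38.p6) are neighbours and closely related in sequence, and how reads were shared between them is not given. In RefSeq, Lefty1 overlaps Gm39715, Smad3 overlaps Gm51710, Smad7 overlaps Gm41776 and Acvr1b overlaps Mir6962. None of these overlapping genes has a row of its own. The strand setting of the counting is not given, so whether their reads entered the members' counts is not known.

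Which libraries entered the fit decided what was called. Without dTAG replicate 1, 2 of the 9 genes passed: Lefty1 was higher (log2 fold change 2.17, SE 0.32, edgeR adjusted p = 0.000409) and Nodal was lower (log2 fold change -0.98, SE 0.33, edgeR adjusted p = 0.0254). In that fit 40% of all genes were called higher and 19.8% lower, so 2 of 9 is not above the background. Nodal was not below every control on CPM in either remaining dTAG library, and Tdgf1, at -2.74 (SE 1.17), missed the threshold (edgeR adjusted p = 0.0603). With dTAG replicate 1 set alone against the 3 controls, 0 members were called, beside 0.0606% of all genes higher and 0.0276% lower, with Tdgf1 the 1 gene of the 9 at an unadjusted p under 0.05. That library alone is assumed to vary as the controls do. On CPM it lay above every control for Nodal, Smad2 and Lefty1 (3 of 9, against 34.2% of tested genes) and below every control for Tdgf1 and Acvr1b (2 of 9, against 16.9%).

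**Figure D2:**
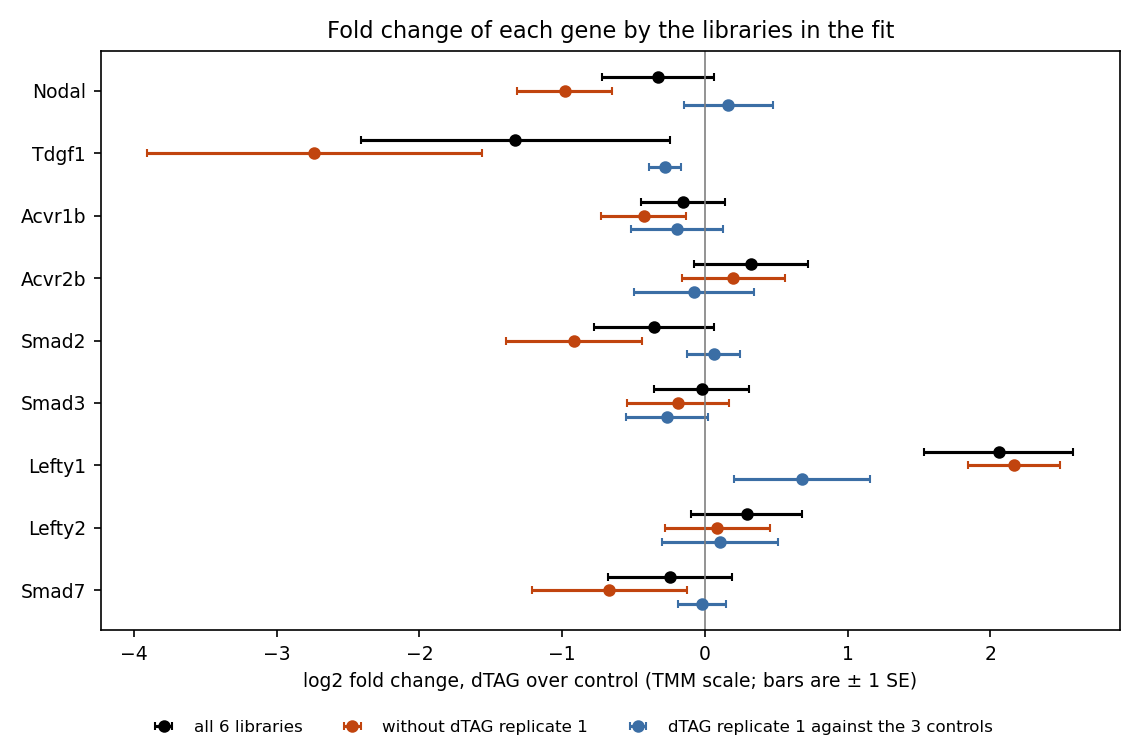
Log2 fold change of each gene, dTAG over control, with bars of 1 SE, from edgeR fits to all 6 libraries (black), to 5 libraries without dTAG replicate 1 (red) and to dTAG replicate 1 with the 3 controls (blue). Tdgf1 is below 0 and Lefty1 above 0 in all 3 fits, at -1.33, -2.74 and -0.28 for Tdgf1 and 2.06, 2.17 and 0.68 for Lefty1.

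The make-up of the 9 genes' own counts does not depend on how libraries are scaled. The part of the dTAG libraries' unequal RNA make-up in these shares was not tested. Tdgf1 took 51.9% (Wilson 95% interval 50.6% to 53.1%), 31.5% (28.7% to 34.4%) and 3.47% (2.57% to 4.67%) of these counts in dTAG replicates 1, 2 and 3, against 55.0%, 56.8% and 58.7% in the controls. Its share was thus below every control in every dTAG library. Lefty1 took 1.96%, 9.02% and 16.2% in the dTAG libraries, against 0.915%, 1.07% and 1.33% in the controls. Smad2, at 12.9%, 14.2% and 14.0% against 10.5% to 11.6%, and Smad7, at 16.6%, 19.0% and 28.7% against 14.4% to 16.1%, were also above every control. These 4 genes each gave p = 0.1 in an exact two-sided permutation test, the smallest that 3 against 3 libraries allow, and an adjusted p = 0.25 over the 10 tests made, so no share passed. Shares of 1 total rise when another falls, and counts are not per length, so they say nothing of which gene is the more abundant. Intervals cover counting error only.

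**Figure D3:**
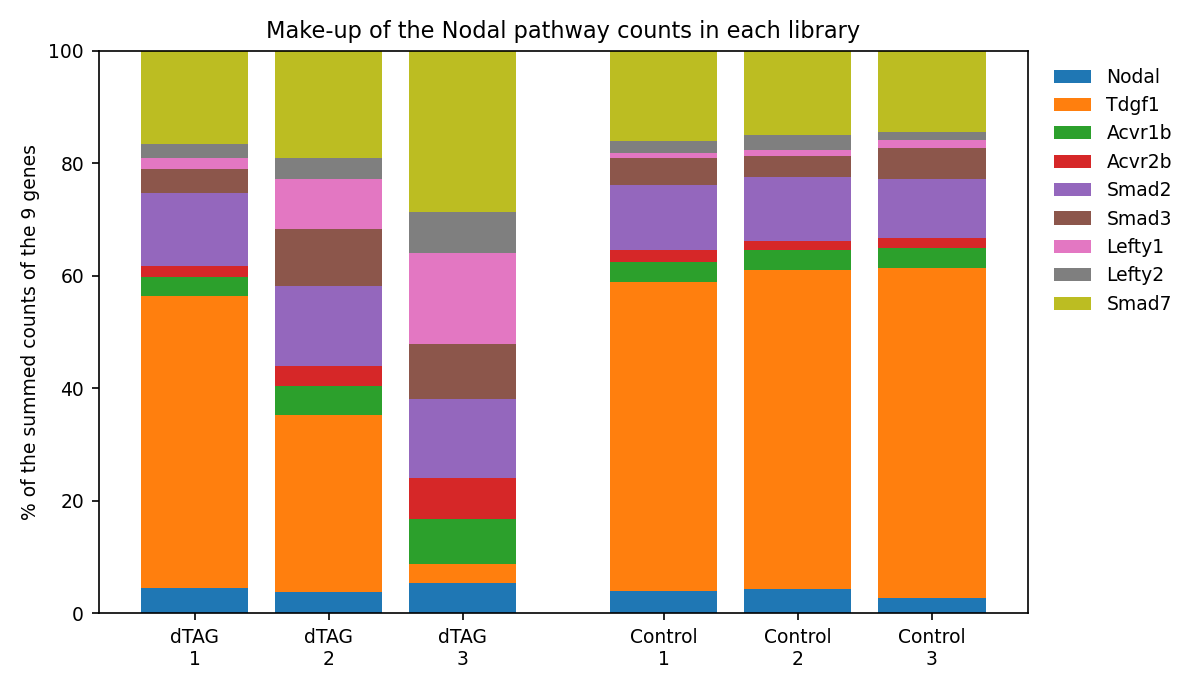
Share of each gene in the summed counts of the 9 genes, in percent of counts, with dTAG replicates 1 to 3 left and control replicates 1 to 3 right. The Tdgf1 segment is 3.47% in dTAG replicate 3, against 55.0% to 58.7% in the controls.

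The 2 Lefty genes were set against each other within each library. Lefty1 had 0.811 (0.640 to 1.03), 2.42 (1.66 to 3.53) and 2.26 (1.75 to 2.91) counts per Lefty2 count in dTAG replicates 1, 2 and 3, against 0.461 (0.347 to 0.611), 0.411 (0.319 to 0.530) and 0.896 (0.680 to 1.18) in the controls, with Wilson 95% intervals. The groups overlapped, since dTAG replicate 1 was below control replicate 3. The mean log2 ratio was 1.57 higher in dTAG (exact two-sided permutation p = 0.2, adjusted p = 0.286 over the 10 tests).

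Tdgf1 was also set against the naive stem cell genes of its own library, a measure added after the data were seen. Per 1000 counts of the 10 naive markers, it had 87.8, 84.8 and 35.9 counts in dTAG replicates 1, 2 and 3, against 106, 107 and 108 in the controls. dTAG replicate 3 was the lowest library and had the highest share of olfactory and vomeronasal receptor genes with a count, whose part in this measure was not tested. The means were 69.5 ± 29.1 in dTAG and 107 ± 0.990 in controls (SD, n = 3 each, exact permutation p = 0.1, the smallest possible). Of all genes tested, 1.05% were below every control in every dTAG library on this measure and 24% above every control, Lefty1 among those above. None of the 10 naive markers, each set against the other 9, was separated from the controls in all dTAG libraries. Nanog was nearest to it, at 83.9, 81.5 and 32.6 per 1000 in dTAG replicates 1, 2 and 3, against 83.9 to 93.8 in the controls. Dppa5a had 432, 304 and 26.1 per 1000 in the dTAG libraries, against 385 to 435 in the controls. In dTAG replicate 3 Nanog, Zfp42 and Dppa5a were below every control, and the rest of the 10 markers were above. Dppa5a is part of the summed marker counts, so its level also enters the measure for Tdgf1. In an edgeR fit scaled to the naive markers the log2 fold change of Tdgf1 was -0.62 (SE 0.47) and did not pass (adjusted p = 0.297).

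The genes whose levels followed these members most closely over the 6 libraries were found among 15264 others with a mean of at least 5 CPM, by the root mean square difference of log2(CPM + 1), each profile centred on its own mean. Nearest to Tdgf1 were Slc25a3, the mitochondrial phosphate carrier, at 0.05, the ribosomal protein gene Rpl10a at 0.08 and Tpt1 at 0.09. Ribosomal protein genes, 88 in all, took 4.08%, 2.11% and 0.218% of counts in dTAG replicates 1, 2 and 3, against 3.80% to 3.93% in the controls, and their part in the Tdgf1 values was not tested. Slc25a3 stood at 189, 115 and 16.6 CPM in dTAG replicates 1, 2 and 3, against 208 to 223 CPM in the controls. Nearest to Lefty1 were Gpr135 at 0.06, Jdp2 at 0.11 and Zxdb at 0.11. Zxdb stood at 11.2, 52.5 and 144 CPM in the dTAG libraries, against 7.09 to 8.73 CPM in the controls. Nearest to Lefty2 were Flot2 at 0.06, Jund at 0.08 and Dnmbp at 0.09, and nearest to Nodal were Parp4 at 0.09, Irf1 at 0.09 and Get4 at 0.10.

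The rest of the Activin, Nodal and TGF-beta pathway was described through 43 further genes in 7 roles, of which 39 passed the filter on low counts. None was called higher or lower (edgeR, adjusted p under 0.05). At an unadjusted p under 0.05 there were 12 of the 39, beside 4202 of all 18116 genes tested. Their median log2 fold change was 0.61, against -0.16 for the 9 members and 0.16 for all genes tested. The order of the pathway genes and all genes turned in other fits, with medians of 0.53 and 1.02 without the filter, 0.70 and 1.24 with DESeq2, and 0.63 and 0.68 without dTAG replicate 1. With dTAG replicate 1 alone the medians were -0.07 for these genes, -0.02 for the 9 members and -0.02 for all genes, with 0 of the 39 called. The roles differed in the full fit. Developmental targets had a median of 2.49, extracellular inhibitors 1.95 and other ligands 1.56, while ligand processing stood at -0.08, other receptors at -0.03, intracellular inhibitors at -0.50 and transducers with nuclear partners at -0.50. Genes almost silent in the controls could pass the filter through the dTAG libraries in which they were high, so these medians support no direction.

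**Figure D4:**
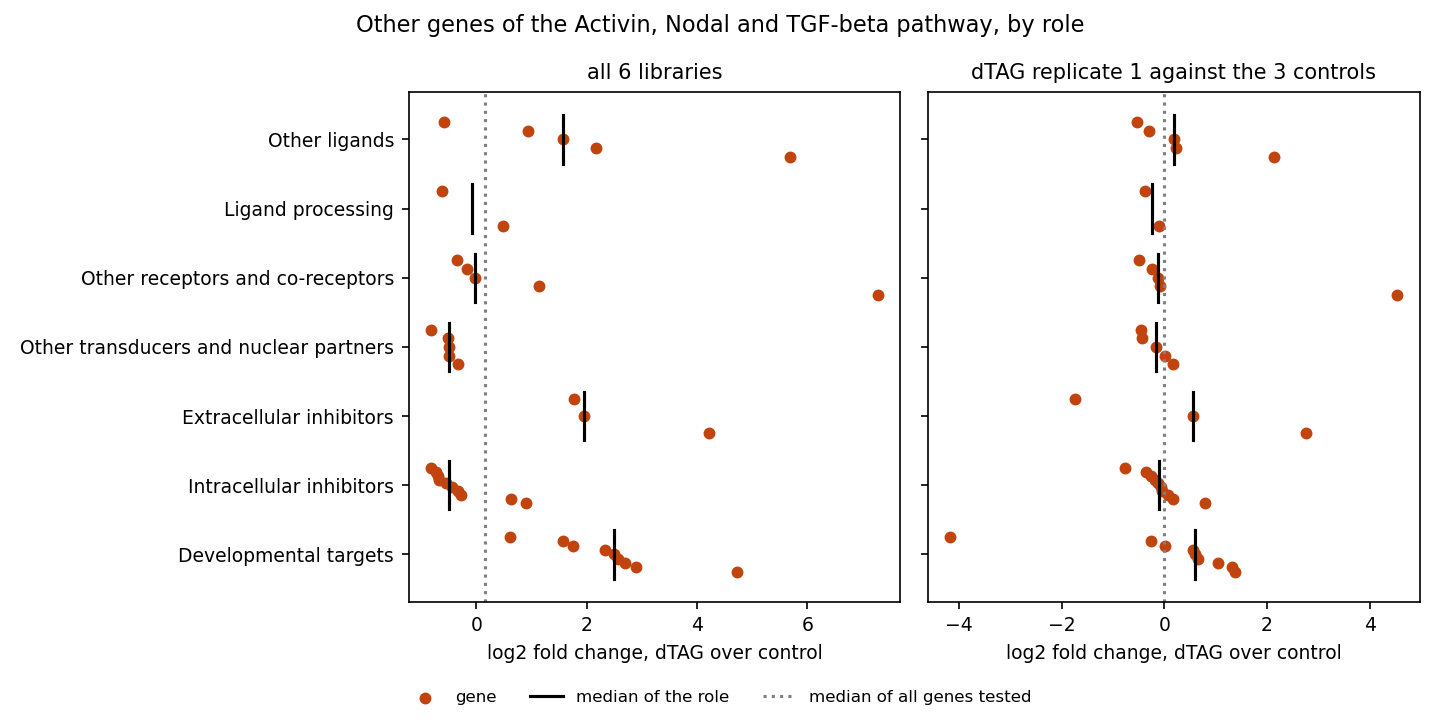
Log2 fold changes, dTAG over control, of 39 other pathway genes by role, from all 6 libraries (left) and from dTAG replicate 1 with the 3 controls (right), on separate axes. Each point is a gene, black bars are role medians and dotted lines the median of all genes tested, at 0.16 and -0.02; developmental targets have a median of 2.49 on the left and 0.59 on the right.

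Among other ligands, Gdf3, which signals through the same receptors and Cripto, stood at 26.1, 13.6 and 25.9 CPM in dTAG replicates 1, 2 and 3, against 16.6 to 24.8 CPM in the controls. Inhbb, an activin subunit, stood at 11.1, 44.6 and 108 CPM in the dTAG libraries, against 11.9 to 13.9 CPM in the controls. Of the convertases that cleave the Nodal precursor, Pcsk6 had 76.1, 84.9 and 67.3 CPM in the dTAG libraries, against 73.9 to 83.2 CPM in the controls, and Furin had 19.1, 53.5 and 141 CPM, against 20.7 to 25.8 CPM. Furin was above every control in dTAG replicates 2 and 3 and below every control in dTAG replicate 1.

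The receptors and nuclear partners with the highest control levels overlapped between the groups. The type I receptor gene Tgfbr1 had 22.8, 38.9 and 64.0 CPM in the dTAG libraries, against 19.1 to 31.5 CPM in the controls, and the TGF-beta co-receptor gene Tgfbr3 had 19.3, 30.5 and 59.0 CPM, against 14.0 to 24.6 CPM. Trim33, a ubiquitin ligase that binds activated SMADs, had 106, 89.6 and 89.9 CPM in the dTAG libraries, against 81.0 to 94.3 CPM in the controls, and the Mediator subunit gene Med15 had 65.6, 65.2 and 81.7 CPM, against 53.9 to 72.0 CPM. All 5 transducers and nuclear partners overlapped between the groups. Of all genes tested, 23.9% were above every control in every dTAG library and 3.22% below, and the rest overlapped.

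The inhibitors were uneven. Ppm1a, a phosphatase that acts on SMAD2 and SMAD3, had 125, 108 and 58.5 CPM in the dTAG libraries, against 99.2 to 127 CPM in the controls. Skil, a SMAD corepressor, had 109, 116 and 70.6 CPM, against 106 to 109 CPM. Both genes were below every control in dTAG replicate 3. The secreted inhibitors were near silent in the controls: Dand5 had 3.49, 10.8 and 48.0 CPM in the dTAG libraries, against 1.60 to 2.98 CPM, and Fst had 0.465, 7.51 and 31.4 CPM, against 1.19 to 2.04 CPM.

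Developmental targets, transcription factors and signals that Nodal induces in the embryo, were low in the controls. Eomes, a regulator of mesoderm and endoderm, had 8.99, 19.7 and 54.6 CPM in the dTAG libraries, against 6.88 to 9.94 CPM in the controls (log2 fold change 0.61, SE 0.43, edgeR adjusted p = 0.411). Gsc, Mixl1, T, Lhx1 and Sox17, named after their values were seen, were above every control in every dTAG library. The same held for 23.9% of tested genes. In dTAG replicate 1 these 5 had 1.58 to 2.73 times the control mean. Of the same list, Foxa2 was below every control in dTAG replicate 1 (0.0775 CPM, against 0.497 to 3.51 CPM). Fgf8 and Eomes lay within the controls' range in that library. The 3 pathway genes with the smallest p, Acvr1c, Lhx1 and Inha, were also named after their values were seen, and each had an edgeR adjusted p = 0.0795. All 3 were near silent in the controls and passed the filter on low counts through the dTAG libraries in which they were high. Acvr1c, a type I receptor gene, had 1.32, 15.5 and 46.9 CPM in dTAG replicates 1, 2 and 3, against 0.0702, 0.0639 and 0 CPM in the controls. Inha, an inhibin subunit gene, had 2.17, 11.7 and 23.2 CPM in the dTAG libraries, against 0.140, 0.511 and 0.213 CPM in the controls. Lhx1 had 1.94, 36.6 and 104 CPM in the dTAG libraries, against 0.983, 0.575 and 0.639 CPM in the controls.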

How the data were processed

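RNA-seq counts per gene were deposited by the authors as 1 table of whole-number counts for 3 dTAG and 3 control libraries. Per the submitters' processing notes, STAR 2.7.2b, featureCounts, edgeR, limma and build mm10 were named, with no roles or order. Neither the strand setting of the counting nor its annotation is given in the sources used here. Counts of 903 rows without a gene name were left out, which held 2.20% to 14.6% of counts per library. Counts in named genes ranged from 1812405 to 15652795, and a floor of 3 counts corresponded to 0.192 to 1.66 CPM.

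CPM was computed over named genes. The main test was edgeR 4.0.16 (quasi-likelihood, TMM, filterByExpr with a minimum count of 10 and total of 15, Benjamini-Hochberg adjustment, threshold 0.05), dTAG over control, on all genes. DESeq2 1.42.0, limma-voom (limma 3.58.1), other scalings and filters, a replicate block and leaving out libraries were alternatives. Scaling to naive markers was added after the data were seen. Standard errors were derived from each fold change and its F statistic. The edgeR script was tested on simulated counts with equal depths and less spread than these libraries, so that test checks the code only. Shares and ratios were tested by exact permutation over libraries in SciPy 1.17.1.

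The members and lists were chosen with earlier results of these data known. Named pathway genes were the 2 with the highest mean control CPM per role, and the 3 nearest genes were named for Nodal, Tdgf1, Lefty1 and Lefty2. Exceptions are stated beside them, and 1 pathway gene that the rule selects is not reported here.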

Additional observations from a re-analysis of the deposited data

How the results depend on the processing

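Across the 9 genes and 16 alternatives, 125 of 144 log2 fold changes kept their direction and their side of the threshold, 3 newly passed it and 16 changed sign. Tdgf1 was negative in all 16 (-2.77 to -0.28) and Lefty1 positive in all 16 (0.68 to 4.96). The median of all genes was 0.16 with TMM, 1.11 with library totals and 2.701 with naive-marker scaling, and the members' median relative to it was -0.31, -0.34 and -0.37. It was -1.36 without the filter, -1.45 with DESeq2, -1.11 without dTAG replicate 1, -0.87 to -0.85 without 1 control and -0.0071 without dTAG replicates 2 and 3. Signs turned with library totals for Nodal (0.42), Acvr1b (0.77), Smad2 (0.37), Smad3 (0.86) and Smad7 (0.61), and with naive-marker scaling for Nodal (1.81), Acvr1b (2.33), Smad2 (1.69), Smad3 (2.33) and Smad7 (2.12). Without dTAG replicates 2 and 3 they turned for Nodal (0.16), Acvr2b (-0.078), Smad2 (0.062) and the shares of Acvr1b (-0.11 points) and Smad3 (-0.37 points), and the log2 Lefty1 to Lefty2 difference was 0.55. A 1 CPM filter gave Smad3 0.11. Leaving out 1 library gave Smad3 -0.33 to 0.049 (without dTAG replicate 3) and Lefty2 -0.048 (without control replicate 3) to 0.33.

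Genes called numbered 0 with all libraries, 1398 without the filter, 5086 with DESeq2, 16 without dTAG replicates 2 and 3, and 0 to 13222 with 1 library left out. Members called numbered 1 with DESeq2 and 0 to 2 with 1 library left out. Pathway genes called numbered 5 of 42 without the filter, where 5.45% of all genes were called higher. With DESeq2 they numbered 11 of 42, where 21.4% of all genes were called higher. With 1 library left out they numbered 0, except 26 of 42 without dTAG replicate 1. In that fit 40% of all genes were called higher and 19.8% lower. The cause was not tested. The replicate block called 13 genes and 0 members. Deviations of same-numbered libraries correlated at -0.02, -0.02 and -0.03, and those of other-numbered libraries at -0.01 to 0.04. The deviations include the make-up differences of dTAG replicates 2 and 3, so they cannot tell whether the numbers pair the samples. The depth of dTAG replicates 2 and 3 left 38 and 63 Nodal counts, and 321 and 41 Tdgf1 counts.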

Other observations

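Nodal had 13.5 CPM in control replicate 3 (exact 95% Poisson interval 11.6 to 15.5 CPM), against 21.0 CPM (18.7 to 23.5 CPM) in control replicate 1 and 21.2 CPM (18.9 to 23.6 CPM) in control replicate 2. Lefty2 had 7.52 CPM (6.16 to 9.10 CPM) in control replicate 3, against 10.7 CPM (9.04 to 12.5 CPM) in control replicate 1, where the intervals overlap, and 12.9 CPM (11.2 to 14.8 CPM) in control replicate 2. These intervals cover counting error only, not the spread between libraries.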
